A study of Mus musculus with 11 samples.

Results

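The antioxidant defence genes described here are 32 named genes of the mouse, followed through RNA sequencing of aortic valves. They were chosen by symbol, from lists of enzymes and regulators that dispose of superoxide and peroxides, supply glutathione and thioredoxin, or bind metals. All 32 were found among the 46983 genes counted, and all 32 were among the 19366 genes with enough counts to test. They comprise 3 superoxide dismutases, 12 peroxide-reducing enzymes, 5 genes of glutathione supply, 6 of the thioredoxin system, 2 metallothioneins, and 4 genes of the NRF2 pathway.

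Each library came from the aortic valve of 1 wild type mouse, taken 48 hours after surgery. In injured mice a wire had been used in vivo to damage the endothelium of the valve, and the control mice had undergone sham surgery. The groups were young injured (n = 3) and young sham (n = 3), from mice 3 to 4 months old, and aging injured (n = 2) and aging sham (n = 3), from mice 16 to 18 months old. The comparisons asked what injury changed at each age, what age changed under each surgery, and whether the injury effect differed with age.

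Total counts ranged from 27124000 to 36353474 per library. All 9 listed valve interstitial fibroblast markers and all 10 endothelial markers had counts in every group. Cardiac muscle transcripts were also present in every library, with none of the 12 listed cardiomyocyte markers at 0 in any group. Young injured 3 stood apart, with a summed level of these markers of 35647.7 CPM (counts scaled to a common library size), against 9118.9 and 8214.8 CPM in young injured 1 and 2. In a whole valve, fewer cells of a type and less RNA per cell cannot be told apart. For injury in young valves, members whose log2 fold change moved by over 1.5 times without young injured 3 are given with and without it.

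Superoxide released by mitochondria and by NADPH oxidases is turned into hydrogen peroxide by superoxide dismutases. Catalase, the glutathione peroxidases and the peroxiredoxins then reduce hydrogen peroxide and lipid peroxides, drawing electrons from glutathione or thioredoxin. Many of these genes are controlled by the transcription factor NRF2, which the adaptor KEAP1 holds back until oxidants or electrophiles modify it. NRF2 binds the antioxidant response element, and the metallothioneins answer to metals through the metal response element. Oxidative stress is a studied feature of aortic valve disease.

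The 4 promoters that follow are shown because they give an example of each kind of match to these elements among the members. The 250 bases before each gene's RefSeq start (assembly GRCm38.p6) were searched on both strands. The antioxidant response core was TGACNNNGC, and the metal response core was TGCACNC or TGCGCNC. Capitals mark every match, and the sequences run 5′ to 3′ on the gene's own strand. Gclm (chr3:122245307-122245556, plus strand) had 1 antioxidant match that shared bases with 1 of its 2 metal matches. Sod1 (chr16:90220512-90220761, plus strand) had 1 antioxidant match, 56 bases before the start. Mt1 (chr8:94178839-94179088, plus strand) had 1 metal match, 23 bases before the start. Nqo1 (chr8:107403206-107403455, minus strand) had neither core in this window.
Gclm: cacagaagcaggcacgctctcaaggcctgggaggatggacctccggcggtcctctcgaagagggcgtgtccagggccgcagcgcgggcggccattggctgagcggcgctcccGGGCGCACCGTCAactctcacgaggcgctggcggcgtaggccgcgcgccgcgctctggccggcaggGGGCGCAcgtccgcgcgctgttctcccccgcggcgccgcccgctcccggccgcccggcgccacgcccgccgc
Sod1: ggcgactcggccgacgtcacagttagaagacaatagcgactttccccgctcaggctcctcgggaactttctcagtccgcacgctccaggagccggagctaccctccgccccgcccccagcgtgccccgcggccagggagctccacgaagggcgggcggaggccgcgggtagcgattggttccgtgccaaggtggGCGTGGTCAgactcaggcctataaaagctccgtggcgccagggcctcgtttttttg
Mt1: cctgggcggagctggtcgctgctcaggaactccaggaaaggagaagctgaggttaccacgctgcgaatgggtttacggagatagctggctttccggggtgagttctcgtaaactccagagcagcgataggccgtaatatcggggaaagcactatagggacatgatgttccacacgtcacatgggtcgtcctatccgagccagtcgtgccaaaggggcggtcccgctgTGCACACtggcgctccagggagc
Nqo1: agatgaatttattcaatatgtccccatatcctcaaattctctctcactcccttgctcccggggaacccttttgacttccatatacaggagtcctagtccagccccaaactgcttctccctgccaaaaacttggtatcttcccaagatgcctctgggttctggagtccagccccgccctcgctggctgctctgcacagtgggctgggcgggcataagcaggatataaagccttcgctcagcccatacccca

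Of the 32 members, 26 had a promoter in the RefSeq table. These 26 genes have 31 promoter windows, since some have more than 1 start. The antioxidant core was found in 6 of the 31 windows (19.4%), those of Sod1, Prdx1, Gclm, Txnrd1, Mt2 and Nfe2l2, against 10.2% of all 32851 promoter windows of the same length. The metal core was found in 7 of the 31 windows (22.6%), those of Gpx7, Prdx4, Gclm, Txnrd2, Srxn1, Mt1 and Mt2, against 21.4% of all windows. Annotated exons cover 248 of the 250 bases in the Gpx7 window, all 250 in that of Mt2 and 144 in that of Nfe2l2. Such a match is a description of the letters and not of binding.

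Levels were compared between genes with the authors' RPKM, which is scaled by transcript length and was listed for 31 members, Slc7a11 being the exception. Gpx3, the secreted glutathione peroxidase, had the highest mean over the 11 libraries at 361 ± 166 RPKM (SD, n = 11). It was followed by Sod3, the extracellular superoxide dismutase, at 267 ± 84.1 RPKM and Sod1, the cytosolic copper-zinc enzyme, at 255 ± 17.4 RPKM. The ranges of these 3 genes overlapped, from 202 to 694 RPKM in Gpx3, from 141 to 443 RPKM in Sod3, and from 223 to 278 RPKM in Sod1. Mt1, a metallothionein that binds zinc and copper, averaged 172 ± 44.3 RPKM, and Gpx1, the common cytosolic glutathione peroxidase, 160.2 ± 29.4 RPKM. The lowest means were those of Gclm, the modifier subunit of glutamate-cysteine ligase (5.22 ± 0.59 RPKM), Txnrd2, the mitochondrial thioredoxin reductase (2.97 ± 0.89 RPKM), and Gss, glutathione synthetase (2.86 ± 0.53 RPKM). On this scale the secreted enzymes Gpx3 and Sod3 led, and genes of glutathione synthesis were among the least abundant.

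**Figure D1:**
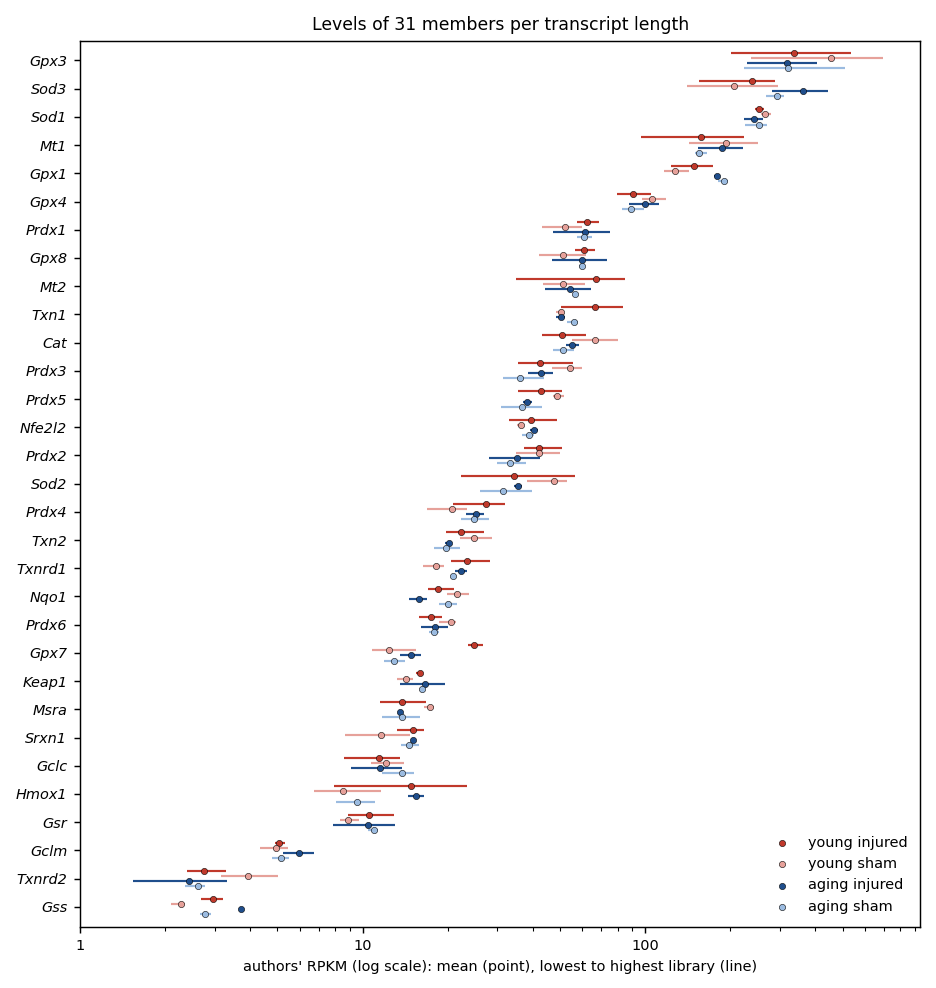
Levels of 31 members in the authors' RPKM (horizontal log axis), with genes ordered from the highest mean at the top to the lowest at the bottom. Points are group means and lines run from the lowest to the highest library of each of the 4 groups. Gpx3, Sod3 and Sod1 lead, and Txnrd2 and Gss are lowest.

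All further values are CPM after scaling by the TMM method, and they compare libraries within a gene. Sod1 was the steadiest member, with a standard deviation of log2 CPM of 0.10 over the 11 libraries and values from 129 to 164 CPM. Nfe2l2, which encodes NRF2, followed with a standard deviation of 0.14, and Keap1 with 0.15. The most variable were Slc7a11, the cystine importer (1.56), Gpx3 (0.64) and Hmox1, heme oxygenase 1 (0.55). The median of this standard deviation was 0.25 over the members and 0.40 over all genes tested.

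Injury in young valves was compared first. A gene was called where the Benjamini-Hochberg adjusted p of edgeR's quasi-likelihood test was under 0.1 and the fold change over 2. By this rule 0 of 32 members were called, against 0.418% of all genes tested. DESeq2 also called 0 members, against 1.38% of all genes, and limma-voom with quality weights called 2, Gpx7 and Slc7a11, against 1.94%. An unadjusted p under 0.05 was reached by 8 of 32 members, against 9.19% of all genes. Leaving out 1 library moved this number to 16 (young injured 3), 2 (young injured 2), 5 (young injured 1 or young sham 3) and 3 (young sham 2 or any 1 of the aging sham libraries). It was 17 by limma-voom and 1 with the cardiomyocyte score of each library as a covariate. The 9.19% belongs to the main fit, and the share of all genes in these other fits is not given here. Calls over all genes also moved, to 2.33% without young injured 3. These counts are therefore not read as a trait of the members. Injured and sham libraries did not overlap in 6 of 32 members, against 14.6% of all genes, with 4 higher (background 9.54%) and 2 lower (background 5.07%) after injury. Log2 fold changes were positive in 16 members and negative in 16, where 51.5% of all genes were positive, with a median of 0.03, against 0.01 over all genes tested.

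Gpx7 came nearest to a call. It encodes a glutathione peroxidase of the endoplasmic reticulum, where oxidative protein folding produces peroxide (ENSMUSG00000028597, mm10 chromosome 4, 108400390 to 108406961, minus strand). It stood at 26.5, 30.2 and 28.5 CPM in young injured valves, against 13.1, 12.9 and 18.1 CPM in young sham valves. Every injured library was above every sham library. The log2 fold change was 0.95 ± 0.17 (SE), or 1.93-fold, with an adjusted p of 0.0523, so it passed the threshold on p and fell short of the one on fold. It was the only member with an adjusted p under 0.1, a level reached by 0.687% of all genes tested.

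In aging valves Gpx7 stood at 15.7 and 19.3 CPM after injury, against 14.7, 13.6 and 16.2 CPM after sham surgery. These groups overlapped, and the log2 fold change was 0.24 ± 0.19 with an adjusted p of 0.795. The injury effect in aging minus that in young valves was -0.71 ± 0.26 on the log2 scale (adjusted p = 0.544 by edgeR), so the difference between ages did not pass the threshold. The adjusted p in young valves was 0.245 without young injured 2, 0.164 without young sham 1 and 0.237 without young sham 2. It was 0.215 with only the 2 groups compared in the fit and 0.158 with the number of detected genes as a covariate. The summed level of the 9 valve interstitial fibroblast markers moved with Gpx7, at 23124.9 to 28323.1 CPM in young injured valves and 16429.1 to 20312.5 CPM in young sham valves. None of the 9 was at 0, and their part in the Gpx7 result was not tested.

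Among the other peroxide-reducing enzymes, no adjusted p was under 0.1 after injury in young valves. Over the 12 genes of this group, Gpx7 included, 5 log2 fold changes were positive and 7 negative, with a median of -0.14. Cat, the catalase of peroxisomes, stood at 98.1, 107.9 and 147 CPM in young injured valves, against 134.5, 153.5 and 190.6 CPM in young sham valves. The highest injured library, young injured 3, reached into the sham range. Its log2 fold change was -0.44 ± 0.18 with an adjusted p of 0.461. Prdx6, a peroxiredoxin that also has phospholipase activity, was lower in every injured library (67.0 to 83.8 CPM) than in any sham library (84.3 to 93.4 CPM). The gap was narrow, and in RPKM the groups overlapped (up to 19.1 in injured, from 18.7 in sham valves). The log2 fold change of Prdx6 was -0.28 ± 0.12 with an adjusted p of 0.521.

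The remaining glutathione peroxidases and peroxiredoxins overlapped between injured and sham valves of young mice. Gpx1 (0.17 ± 0.14), the endoplasmic reticulum enzyme Gpx8 (0.19 ± 0.18), the cytosolic Prdx1 (0.22 ± 0.17) and the endoplasmic reticulum enzyme Prdx4 (0.34 ± 0.17) had positive log2 fold changes. Negative ones were those of Gpx3 (-0.47 ± 0.48), Gpx4, which reduces lipid peroxides in membranes (-0.28 ± 0.16), the cytosolic Prdx2 (-0.05 ± 0.20), the mitochondrial Prdx3 (-0.39 ± 0.21), and Prdx5 of mitochondria and peroxisomes (-0.24 ± 0.17). Adjusted p-values of these 9 genes ran from 0.594 to 0.976. Without young injured 3 the log2 fold changes were 0.28 ± 0.14 in Gpx1, -1.01 ± 0.48 in Gpx3, -0.42 ± 0.16 in Gpx4, -0.23 ± 0.19 in Prdx2, -0.66 ± 0.18 in Prdx3 (adjusted p = 0.108) and -0.40 ± 0.16 in Prdx5, each larger in size than with it.

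The superoxide dismutases differed among themselves in how the young libraries lay. Sod1 stood at 142, 149 and 145 CPM in young injured valves, against 156, 151 and 164 CPM in young sham valves. These groups did not overlap in CPM but did in RPKM (up to 262 in injured, from 257 in sham valves). The difference was small at -0.11 ± 0.12 on the log2 scale with an adjusted p of 0.849. Sod3 overlapped widely, at 531 to 934 CPM in injured and 479 to 1035 CPM in sham valves, with a log2 fold change of 0.14 ± 0.30, or 0.36 ± 0.30 without young injured 3.

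Sod2, the manganese enzyme of the mitochondrial matrix (ENSMUSG00000006818, chromosome 17, 13007839 to 13018119, plus strand), was the superoxide dismutase with the largest split within a group. It stood at 74.0, 82.4 and 197 CPM in young injured valves, against 137, 180 and 184 CPM in young sham valves. Young injured 1 and 2 were below every sham library, and young injured 3 was above all of them. The log2 fold change was -0.50 ± 0.33 with an adjusted p of 0.709. Without young injured 3 it was -1.09 ± 0.20 with an adjusted p of 0.0414, which passed both thresholds. In that fit Cat had a log2 fold change of -0.63 ± 0.16 with an adjusted p of 0.0871, and Sod2 was the only member called, against 2.33% of all genes in that fit.

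The cardiomyocyte markers moved with Sod2. Their summed level was 9118.9, 8214.8 and 35647.7 CPM in young injured valves, against 19047.4, 26954.2 and 34362.2 CPM in young sham valves, and 1 of the 12 markers had a positive log2 fold change (median -0.72). With the cardiomyocyte score of each library as a covariate, the log2 fold change of Sod2 in young valves was -0.18 ± 0.17. The plot against cardiac muscle transcripts shows Sod2, Gpx3, Prdx3 and Cat high in the libraries with the highest marker sums and Sod3 low there. Gpx7 was high in all 3 young injured libraries, at low and high sums. Most cardiomyocyte markers were lower after injury, so the covariate can take up part of an injury difference itself. The part of cardiac muscle in these values was not tested.

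**Figure D2:**
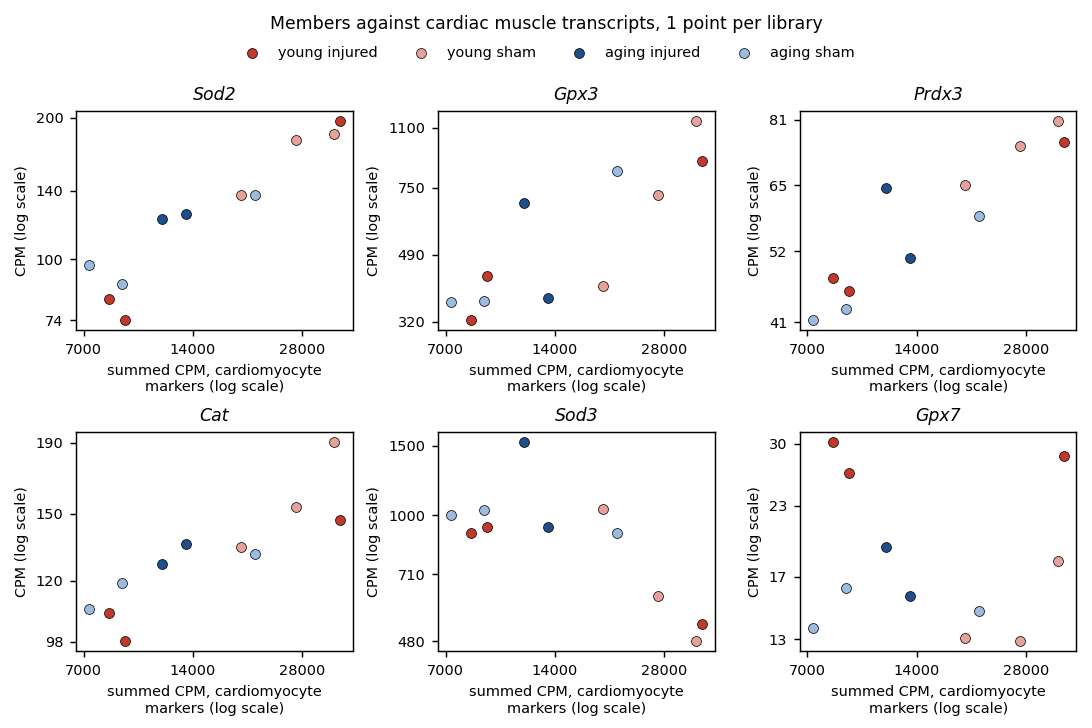
Level of 6 members (vertical axis, CPM on a log scale) against the summed CPM of 12 cardiomyocyte markers (horizontal log axis), with 1 point per library coloured by group. Sod2 was at 197 CPM in the young injured library with a marker sum of 35647.7 CPM, and at 74.0 and 82.4 CPM in the other young injured libraries.

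Genes of glutathione supply were next. Gss, which joins the last amino acid to glutathione (ENSMUSG00000027610, chromosome 2, 155563181 to 155592810, minus strand), stood at 16.5, 15.7 and 14.4 CPM in young injured valves, against 13.0, 11.3 and 12.7 CPM in young sham valves. In aging valves it stood at 19.6 and 20.3 CPM after injury, against 15.5, 14.0 and 14.4 CPM after sham surgery. Injured libraries lay above sham libraries at both ages. The log2 fold change was 0.33 ± 0.14 in young valves (adjusted p = 0.495), 0.45 ± 0.16 in aging valves (adjusted p = 0.442), and 0.39 ± 0.11 averaged over age (adjusted p = 0.167). Gss lies over 3 genes of the opposite strand, Acss2, Gssos1 and Gssos2, and with the use of strand in counting not given, their reads cannot be told apart from those of Gss.

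Slc7a11 had very few reads. It had 26, 75 and 6 counts in young injured libraries, against 0, 0 and 6 counts in young sham libraries. Young injured 3 and young sham 3 held the same count, so the groups met. In aging valves it had 4 and 2 counts after injury, against 16, 13 and 15 counts after sham surgery. Counts of 10 or more, the minimum set for the filter, occurred only in young injured and aging sham libraries, so the groups where it was high brought it into the test. The log2 fold change was 3.71 ± 1.43 in young valves (adjusted p = 0.436) and -2.16 ± 1.57 in aging valves (adjusted p = 0.763). Single libraries decided the young value, which was 8.06 ± 1.84 without young sham 3 (adjusted p = 0.176) and 2.53 ± 1.51 without young injured 2. The gene overlaps 5 others, 2 of them on its own strand, so the origin of these few reads is uncertain.

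The other 3 genes of this group overlapped between injured and sham valves at both ages. Gclc, the catalytic subunit of glutamate-cysteine ligase, had log2 fold changes of -0.14 ± 0.20 in young and -0.25 ± 0.23 in aging valves, and the young value was 0.02 ± 0.20 without young injured 3. Gclm, its modifier subunit, had 27.8 to 29.0 CPM in young injured and 25.0 to 32.1 CPM in young sham valves, a log2 fold change of -0.01 ± 0.14. Gsr, which regenerates reduced glutathione, had log2 fold changes of 0.20 ± 0.19 in young and -0.05 ± 0.21 in aging valves.

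In the thioredoxin system, Txnrd1, the cytosolic thioredoxin reductase (ENSMUSG00000020250, chromosome 10, 82859206 to 82897724, plus strand), stood at 61.1, 84.9 and 66.8 CPM in young injured valves, against 60.2, 50.6 and 60.3 CPM in young sham valves. In aging valves it stood at 71.3 and 67.2 CPM after injury, against 65.8, 62.6 and 62.4 CPM after sham surgery. Injured libraries again lay above sham libraries at both ages, by narrow gaps. In RPKM Txnrd1 overlapped between the aging groups (from 21.3 in injured, up to 21.4 in sham valves). Its log2 fold change was 0.32 ± 0.14 in young (adjusted p = 0.52) and 0.12 ± 0.15 in aging valves (adjusted p = 0.897). Without young injured 2, the highest library, the young value was 0.15 ± 0.13.

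Txn1, the cytosolic thioredoxin that Txnrd1 reduces, had log2 fold changes of 0.34 ± 0.15 in young and -0.13 ± 0.17 in aging valves, where both injured libraries (47.2 and 48.8 CPM) were below the sham libraries (49.6 to 54.7 CPM). Srxn1, the sulfiredoxin that repairs overoxidised peroxiredoxins, stood at 40.5, 38.6 and 34.2 CPM in young injured valves, against 22.9, 29.2 and 37.8 CPM in young sham valves. Young sham 3 reached into the injured range, and the log2 fold change was 0.34 ± 0.17 (adjusted p = 0.597). The mitochondrial Txn2 and Txnrd2 had log2 fold changes of -0.19 ± 0.16 and -0.56 ± 0.28 in young valves. Msra, which repairs oxidised methionine, had -0.38 ± 0.18. Without young injured 3, Txn2 had -0.37 ± 0.15 and Msra -0.57 ± 0.17.

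The metallothioneins showed no shared direction in young valves. Mt1 stood at 45.2, 106 and 74.4 CPM in young injured valves, against 127, 69.8 and 91.1 CPM in young sham valves, and Mt2, its neighbour on chromosome 8, at 16.9, 41.6 and 41.3 CPM in young injured, against 31.9, 21.9 and 24.8 CPM in young sham valves. Both genes overlapped between the groups. On the log2 scale the differences were -0.35 ± 0.29 for Mt1 and 0.35 ± 0.29 for Mt2, the last being 0.16 ± 0.32 without young injured 3.

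Of the 4 genes listed for the NRF2 pathway, the regulators Nfe2l2 and Keap1 varied least over the libraries and Hmox1 most. The standard deviation of log2 CPM was 0.55 in Hmox1 but 0.21 in Nqo1, below the median of 0.25 over the members. Nfe2l2 stood at 114 to 163 CPM in young injured and 125.8 to 126.5 CPM in young sham valves, with a log2 fold change of 0.08 ± 0.14, or 0.17 ± 0.14 without young injured 3. Keap1 was at 64.4 to 67.4 CPM in young injured and 57.7 to 63.3 CPM in young sham valves, a gap without overlap of 0.12 ± 0.14 on the log2 scale (adjusted p = 0.876).

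Hmox1, the NRF2 target that degrades heme (ENSMUSG00000005413, chromosome 8, 75093591 to 75100596, plus strand), stood at 14.9, 44.5 and 26.0 CPM in young injured valves, against 13.7, 14.0 and 22.8 CPM in young sham valves. In aging valves it stood at 31.8 and 29.0 CPM after injury, against 15.7, 21.3 and 18.2 CPM after sham surgery. The aging groups did not overlap, while in young mice 1 injured library lay within the sham range. The log2 fold change was 0.76 ± 0.34 in young (adjusted p = 0.532), 0.73 ± 0.37 in aging valves (adjusted p = 0.619) and 0.74 ± 0.25 averaged over age (adjusted p = 0.282). Without young injured 2, which had the most Hmox1, the young value was 0.27 ± 0.28.

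Hmox1 is also a gene of macrophages that clear red cells. The summed level of 9 of 10 listed macrophage markers, the tenth being left out because its symbol named more than 1 gene, was 659.2, 1103.7 and 817.7 CPM in young injured valves, against 637.0, 612.1 and 813.4 CPM in young sham valves. It was 1067.5 and 1061.8 CPM in aging injured valves, against 686.1, 942.8 and 956.8 CPM in aging sham valves. None of the 9 was at 0 in any group, and their part in the Hmox1 values was not tested.

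Nqo1, the quinone reductase that is the textbook NRF2 target (ENSMUSG00000003849, chromosome 8, 107388225 to 107403206, minus strand), lay the other way from Hmox1. It stood at 23.3, 23.4 and 29.8 CPM in young injured valves, against 28.9, 33.4 and 29.8 CPM in young sham valves. In aging valves it stood at 23.5 and 21.0 CPM after injury, against 30.2, 27.9 and 25.7 CPM after sham surgery. The aging groups did not overlap and the young ones did. Its log2 fold change was -0.27 ± 0.14 in young (adjusted p = 0.613), -0.33 ± 0.16 in aging valves (adjusted p = 0.604) and -0.30 ± 0.11 averaged over age (adjusted p = 0.313).

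**Figure D3:**
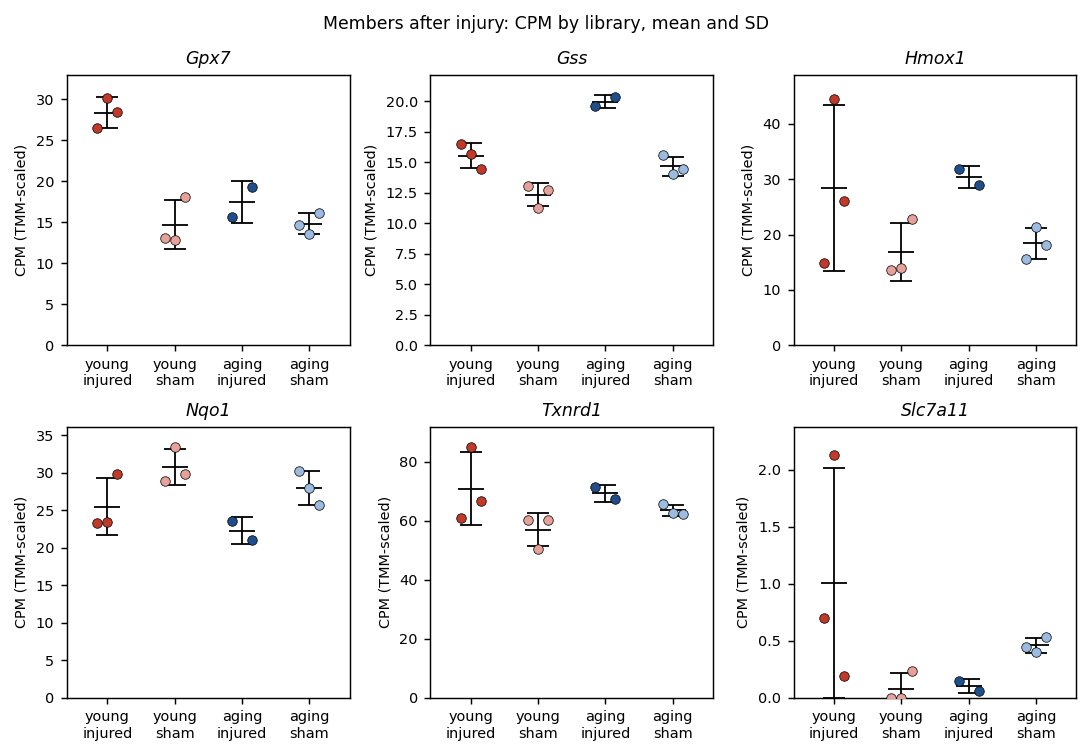
CPM of 6 members in every library (points), with the group mean and SD (bars), in young injured, young sham, aging injured and aging sham valves. Gpx7 was at 26.5 to 30.2 CPM in the 3 young injured libraries and at most 19.3 CPM in the other 8, and Gss was higher in injured than in sham valves at both ages.

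Injury in aging valves rested on 2 injured mice. By edgeR 0 of 32 members were called, against 0.0% of all genes tested, and DESeq2 and limma-voom also called 0 members (backgrounds 1.7% and 0.0%). An unadjusted p under 0.05 was reached by 1 member, Gss, against 8.83% of all genes. Groups did not overlap in 6 of 32 members, against 27.8% of all genes. Gss, Hmox1 and Txnrd1 were higher (background 11.1%) and Nqo1, Txn1 and Slc7a11 lower (background 16.7%) after injury. In 22 members the log2 fold change was positive and in 10 negative, where 48.6% of all genes were positive, with a median of 0.06, against -0.01 over all genes tested. Of the 12 peroxide-reducing genes, 11 were positive with a median of 0.06, and the largest in size was that of Prdx3 at 0.28 ± 0.24. The sign was not stable for Gpx3, Gpx4, Gpx8, Prdx1, Prdx2, Prdx4, Prdx5 and Prdx6, which each changed it under at least 1 alternative processing. Over all 32 members 19 did so, and these signs are not read as a shared rise.

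In aging valves the superoxide dismutases had log2 fold changes of -0.05 ± 0.13 in Sod1, 0.20 ± 0.36 in Sod2 and 0.34 ± 0.34 in Sod3. The metallothioneins had 0.29 ± 0.32 in Mt1 and -0.04 ± 0.33 in Mt2. Gclm had 0.24 ± 0.15 with 37.7 and 30.5 CPM after injury, against 29.0, 30.7 and 26.8 CPM after sham surgery, so that aging injured 2 lay within the sham range. Of the 2 aging injured libraries, the first was higher in Prdx1 (204 against 133 CPM) and Gsr (31.9 against 20.1 CPM), and the second in Sod3 (1533 against 935 CPM) and Gpx3 (681 against 372 CPM). The summed adipocyte markers (573.4 against 198.4 CPM) and the 8 measured of 9 listed erythroid markers (47.0 against 15.5 CPM) were also higher in the second, and their part in these splits was not tested.

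Adipocyte markers and the number of detected genes also differed between the aging groups. The summed level of 9 adipocyte markers was 198.4 and 573.4 CPM in aging injured valves, against 153.4, 161.5 and 77.8 CPM in aging sham valves, with none of the 9 at 0 in either group. All 8 of these markers that were tested had positive log2 fold changes (median 1.75). Genes with at least 1 count numbered 18642 and 19015 in aging injured and 22337 to 22533 in aging sham libraries. With the number of detected genes as a covariate, the log2 fold change in aging valves was 0.29 ± 0.75 in Hmox1, -0.11 ± 0.29 in Nqo1 and 0.27 ± 0.29 in Gss. The SE of Hmox1 was 0.37 without the covariate. The aging groups did not overlap in detected genes, so this covariate cannot be cleanly separated from injury in them. The part of the adipocyte markers in these values was not tested.

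**Figure D4:**
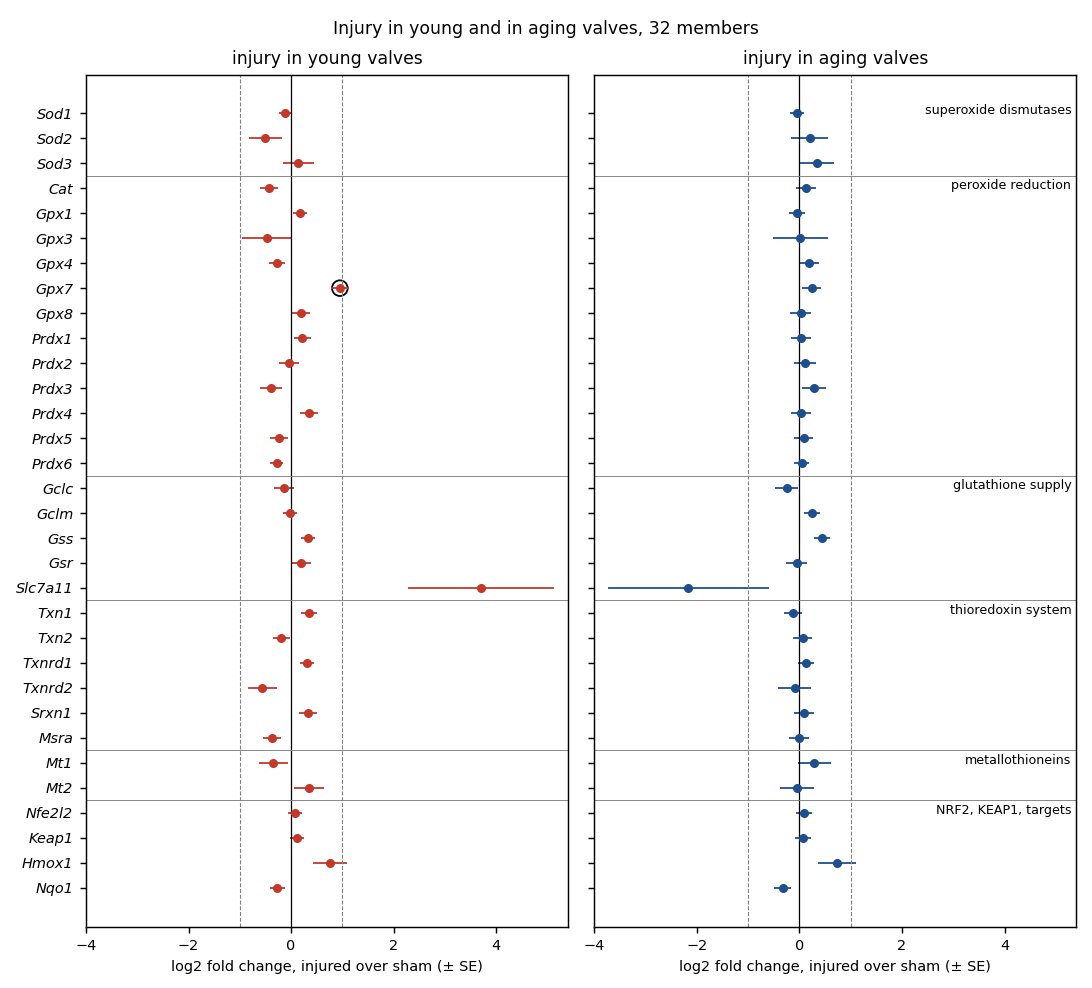
Log2 fold changes of the 32 members, injured over sham, with their standard errors (horizontal axis), in young valves on the left and aging valves on the right, grouped by role. The circle marks the only adjusted p under 0.1, that of Gpx7 in young valves (0.95 ± 0.17), and dashed lines mark a fold change of 2.

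Averaged over age, 0 of 32 members were called by edgeR for injury, against 0.594% of all genes tested, and DESeq2 and limma-voom called 0 as well (backgrounds 2.08% and 0.31%). An unadjusted p under 0.05 was reached by 4 members, Gpx7, Gss, Hmox1 and Nqo1, against 11.5% of all genes. Gpx7 had a log2 fold change of 0.59 ± 0.13 with an adjusted p of 0.0855, the only one under 0.1, against 1.04% of all genes. DESeq2 put Gss at an adjusted p of 0.0184 with a log2 fold change of 0.39, which is under a fold of 2, and 4.35% of all genes had an adjusted p under 0.1 by that tool. Over the members 18 were positive and 14 negative, where 47.8% of all genes were positive, with a median of 0.07, against -0.01 over all genes tested.

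The injury by age interaction called 0 of 32 members by edgeR, DESeq2 and limma-voom, against 0.0%, 0.898% and 0.0% of all genes by these tools in that order. The log2 value was positive in 17 members and negative in 15, where 45.7% of all genes were positive. An unadjusted p under 0.05 was reached by 2 members, Gpx7 and Slc7a11, against 7.86% of all genes. The injury effect in aging minus that in young valves was 0.57 ± 0.26 in Cat (adjusted p = 0.641), 0.66 ± 0.32 in Prdx3 (adjusted p = 0.66) and -0.47 ± 0.23 in Txn1 (adjusted p = 0.673), on the log2 scale.

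Age was compared in sham valves next, with the young sham libraries that also served as the control for injury. By edgeR 0 of 32 members were called, against 0.0258% of all genes tested. DESeq2 called 0 (background 1.03%) and limma-voom called 1, Slc7a11 (background 4.19%). An unadjusted p under 0.05 was reached by 6 members, against 9.19% of all genes. Aging and young sham libraries did not overlap in 14 of 32 members, against 20.9% of all genes, with 6 higher (background 11.8%) and 8 lower (background 9.08%) in aging valves. In 18 members the log2 fold change was positive and in 14 negative, where 52.3% of all genes were positive, with a median of 0.04, against 0.02 over all genes tested.

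Gpx1 (ENSMUSG00000063856, chromosome 9, 108338903 to 108340343, plus strand) had the smallest p for age. It stood at 235, 252 and 246 CPM in aging sham valves, against 193, 161 and 154 CPM in young sham valves. In injured valves it stood at 236 and 235 CPM in aging, against 190.0, 220.1 and 162 CPM in young mice. All 5 aging libraries lay between 235 and 252 CPM, above all 6 young libraries. The log2 fold change was 0.53 ± 0.14 in sham valves (adjusted p = 0.349) and 0.30 ± 0.16 in injured valves (adjusted p = 0.457). DESeq2 put it at an adjusted p of 0.053 in sham valves, a tool by which 1.85% of all genes were under 0.1.

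Prdx3 and Prdx5 were lower in aging than in young sham valves. Prdx3 stood at 58.6, 41.2 and 42.9 CPM in aging sham valves, against 65.0, 74.2 and 80.7 CPM in young sham valves, a log2 fold change of -0.62 ± 0.21 (adjusted p = 0.442). Prdx5 stood at 83.3, 68.8 and 58.6 CPM in aging sham, against 96.2, 99.4 and 91.8 CPM in young sham valves (-0.45 ± 0.17, adjusted p = 0.486). Neither gene overlapped between the groups.

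Cat (-0.41 ± 0.18, adjusted p = 0.525), Txn2 (-0.37 ± 0.16, adjusted p = 0.531), Txnrd2 (-0.63 ± 0.28, adjusted p = 0.537), Msra (-0.37 ± 0.18), Prdx6 (-0.23 ± 0.12) and Gpx4 (-0.29 ± 0.16) also lay lower without overlap in CPM. In RPKM Cat, Txn2 and Gpx4 overlapped between aging and young sham valves. Sod2 overlapped, with 137, 97.2 and 88.3 CPM in aging sham, against 137, 180 and 184 CPM in young sham valves, a log2 fold change of -0.63 ± 0.33. Higher without overlap, besides Gpx1, were Gss (0.25 ± 0.14), Gsr (0.27 ± 0.19), Txnrd1 (0.16 ± 0.14), Keap1 (0.15 ± 0.14) and Slc7a11 with its 16, 13 and 15 counts in aging sham, against 0, 0 and 6 counts in young sham libraries. The 5 genes of glutathione supply were all positive, with a median of 0.25, though Gclm was only at 0.01 ± 0.14. With the cardiomyocyte score as a covariate, Gclc was at -0.16 ± 0.19 and Gclm at -0.06 ± 0.17, while Gss, Gsr and Slc7a11 stayed positive.

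The cardiomyocyte markers moved with these differences. Their summed level was 7231.7 to 20788.9 CPM in aging sham valves and 19047.4 to 34362.2 CPM in young sham valves, and 0 of the 12 had a positive log2 fold change (median -1.24). With the cardiomyocyte score as a covariate, the log2 fold change for age in sham valves was -0.22 ± 0.14 in Prdx3, -0.22 ± 0.16 in Prdx5, -0.10 ± 0.14 in Cat, -0.09 ± 0.13 in Txn2, -0.37 ± 0.33 in Txnrd2 and 0.02 ± 0.20 in Sod2. That of Gpx1 was 0.35 ± 0.13 with the covariate. None of the 12 markers was higher in aging sham valves, so the covariate can take up part of the age difference itself. The part of cardiac muscle in these values was not tested. On p alone, limma-voom with quality weights put 11 of 32 members at an adjusted p under 0.1 for age in sham valves, against 12.0% of all genes, among them Gpx1 at 0.0117 and Prdx3 at 0.0233, where edgeR put none.

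**Figure D5:**
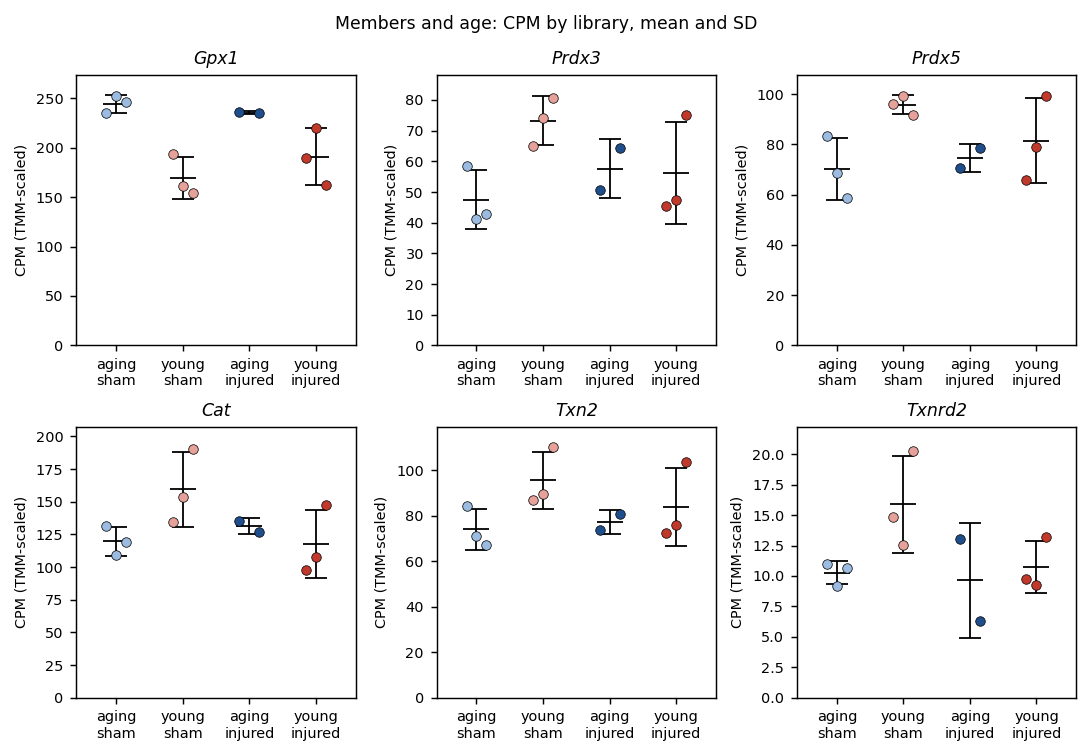
CPM of 6 members in every library (points), with the group mean and SD (bars), in aging sham, young sham, aging injured and young injured valves. Gpx1 was higher in all aging than in all young libraries. The other 5 genes were lower in aging sham than in young sham valves, without overlap in CPM. In RPKM Cat and Txn2 overlapped.

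Aging and young sham libraries overlapped in Hmox1, Gpx7, Gclm, Nqo1, Mt1 and Sod3. Hmox1 had a log2 fold change of 0.13 ± 0.34, Gpx7 0.01 ± 0.17, Gclm 0.01 ± 0.14, Nqo1 -0.14 ± 0.14, Mt1 -0.35 ± 0.29 and Sod3 0.46 ± 0.30. Aging sham libraries were closely spaced in both metallothioneins, at 72.3 to 79.7 CPM in Mt1 and 27.9 to 28.4 CPM in Mt2.

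Age in injured valves called 0 of 32 members by edgeR, against 0.062% of all genes tested, and 0 by DESeq2 and limma-voom (backgrounds 3.09% and 0.00516%). An unadjusted p under 0.05 was reached by 2 members, Gpx7 and Gss, against 12.5% of all genes. Groups did not overlap in 6 of 32 members, against 24.4% of all genes, with 4 higher (background 9.89%) and 2 lower (background 14.5%) in aging valves. Gpx7 was lower in aging injured valves (-0.70 ± 0.19, adjusted p = 0.206 by edgeR and 0.046 by DESeq2, a tool by which 4.87% of all genes were under 0.1), and so was Slc7a11 (-3.30 ± 1.63, adjusted p = 0.44). Gss (0.36 ± 0.16, adjusted p = 0.384), Gpx1, Sod3 (0.65 ± 0.34) and Gclm (0.27 ± 0.15) were higher without overlap in CPM. The gap in Sod3 was narrow (from 935 CPM in aging, up to 934 CPM in young injured valves). In RPKM both Sod3 and Gclm overlapped. Txn1 overlapped at -0.36 ± 0.17 (adjusted p = 0.43). No member had an adjusted p under 0.1 by edgeR, a level reached by 0.0671% of all genes. Of the members 18 were positive and 14 negative, where 46.4% of all genes were positive, and the median was 0.01, against -0.04 over all genes tested.

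Other genes of the same chemistry were read beside the members, in 5 lists with 73 tested genes. In none of the 6 comparisons did edgeR give any of the 73 an adjusted p under 0.1, a level reached by at most 1.04% of all genes tested. For injury, an unadjusted p under 0.05 was reached by 12 in young valves (background 9.19%) and 2 in aging valves (background 8.83%). Averaged over age it was reached by 9 (background 11.5%). For age, it was reached by 12 in sham valves (background 9.19%) and 10 in injured valves (background 12.5%). For the interaction it was reached by 5 (background 7.86%). The 3 genes with the smallest p for averaged injury are named from each list. Of all genes tested, 47.8% were positive for averaged injury, the share to set beside the positive counts below. Of the 12 tested genes of oxidant production, 7 were positive for averaged injury (median 0.20), with Rac2, a subunit of the phagocyte NADPH oxidase, at 0.68 ± 0.26 (adjusted p = 0.345), Ncf1, another subunit, at 0.33 ± 0.23, and Nox4, an oxidase of fibroblasts and endothelium, at -0.39 ± 0.26.

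Of the 9 genes of NADPH supply, 6 were positive (median 0.15), with the pentose phosphate enzymes Pgd at 0.36 ± 0.11 (adjusted p = 0.242), Pgls at 0.21 ± 0.12 and G6pdx at 0.20 ± 0.12. Among 24 further NRF2 partners and targets, 10 were positive (median -0.02). Mafk, a small MAF protein that pairs with NRF2, was at -0.38 ± 0.09 (adjusted p = 0.13), and the glutathione transferases Gsta4 and Gstm5 were at -0.59 ± 0.21 (adjusted p = 0.305) and -0.23 ± 0.10.

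Among the 22 tested thiol enzymes, 11 were positive (median -0.01). Txndc5, a disulfide isomerase of the endoplasmic reticulum as Gpx7 is a peroxidase there, was at 0.46 ± 0.12 (adjusted p = 0.133), Txnrd3, a thioredoxin-glutathione reductase, at -0.40 ± 0.12 (adjusted p = 0.201), and Sesn2, a stress-induced sestrin, at 0.61 ± 0.25 (adjusted p = 0.386). Of the 6 genes of zinc handling, 4 were positive (median 0.09), with the zinc exporter Slc30a1 at -0.26 ± 0.16 and the importers Slc39a10 and Slc39a14 at 0.22 ± 0.13 and 0.12 ± 0.13.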

How the data were processed

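RNA of 11 aortic valves was made into libraries from 200 ng of total RNA and sequenced as paired reads of 150 nt, per the labels' protocols. Reads were processed with TopHat2 2.1.0 and the mm10 build, per the submitters' processing notes. Which counting program, strand setting and annotation were used is not given in the sources used here. The authors deposited raw counts for 46983 genes, which all tests used, and RPKM for 13526 genes, used for levels between genes. In the counts 1 library column matched no label and was left out.

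The members and the other lists were chosen with earlier results of these data known. Genes were kept by filterByExpr (minimum count 10), scaled by TMM and tested in edgeR 4.0.16 (R 4.3.3) by its quasi-likelihood test, with 11 libraries in 1 fit of 4 group means and Benjamini-Hochberg adjustment over the 19366 genes tested. The thresholds, adjusted p under 0.1 and fold over 2, are those of the series' design text. SE is the size of the log2 fold change over the root of its F value. All members are named. Full statistics go to members with an adjusted p under 0.1 and to the 5 with the smallest p in each comparison, and from the other lists the 3 genes with the smallest p for averaged injury are named. The alternatives used DESeq2 1.42.0, limma 3.58.1, other filters and scalings, covariates, the replicate number as a block, and each library left out. The script was tested on simulated counts for injury in young valves only, with less spread between replicates than in these data and no library like young injured 3. That test does not show how the rule performs at the spread of these data. Within groups, 10 pairs of libraries differed beyond sampling noise, with a chi-square per degree of freedom of 20.9 to 228.4. Per-library totals limit precision in low genes such as Slc7a11.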

Additional observations from a re-analysis of the deposited data

Results flagged for a closer look

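Slc7a11 was singled out because its age effect lay in opposite directions under the 2 surgeries in every library. Both aging injured libraries (4 and 2 counts) were below all young injured libraries (26, 75 and 6 counts), and the 3 aging sham libraries (16, 13 and 15 counts) were above all young sham libraries (0, 0 and 6 counts). Counts of 10 or more, the minimum set for the filter, occurred only in young injured and aging sham libraries. The gene was thus tested through the groups where it was high, and the crossed pattern is a description of these counts. The difference between the age effects, which is the injury by age interaction, was -5.87 ± 2.15 on the log2 scale by edgeR (adjusted p = 0.567), and it did not pass the threshold. It was -10.23 ± 2.22 without young sham 3 (adjusted p = 0.489) and -4.68 ± 2.22 without young injured 2. A gene this low can reach such a log2 value with few reads. No formal test for a single library far from its group was made in groups of 2 and 3; young injured 3 is described in the report.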

How the results depend on the processing

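Over 20 alternatives (19 for the interaction, for averaged injury and for Slc7a11 in young valves), 11 of which left out a library each, the 30 member values given with full statistics kept their sign, while 91 of all 192 member values changed sign under at least 1. Members called for injury in young valves (0 in the report) were 2 with limma-voom, 1 with the cardiomyocyte score as a covariate (Gpx7, background 0.361%), and 0 to 1 with a library left out (Sod2 without young injured 3, Gpx7 without young sham 3, background 0.25%). For age in sham valves limma-voom called 1. The adjusted p of Gpx7 in young valves was under 0.1 in 15 of 20 alternatives and ran from 0.00021 to 0.245. Members with an unadjusted p under 0.05, with a library left out, numbered 2 to 16 for injury in young valves, 0 to 3 for injury in aging valves, 1 to 9 for age in sham valves, 1 to 4 for age in injured valves, 2 to 9 for the interaction and 4 to 8 for averaged injury. The share of all genes in the same fits is not given here, so these counts are not read as a trait of the members. The median of the members in the interaction (0.036) ran from -0.064 to 0.12 with a library left out.

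Counts over all genes moved more. Injury in young valves called 81 genes, against 268 with DESeq2, 376 with limma-voom, 11 with only the groups compared, and 16 to 447 with a library left out. Injury in aging valves called 0, against 329 with DESeq2, 1 without a filter, and 0 to 261 with a library left out. Age in sham valves called 5, against 200 with DESeq2, 811 with limma-voom, 14 without a filter, 13 with only the groups compared, 0 with the number of detected genes and 2 with the cardiomyocyte score as a covariate, and 1 to 10 with a library left out. Age in injured valves called 12, against 599 with DESeq2, 1 with limma-voom, 38 without a filter, 0 with only the groups compared, 0 with detected genes as a covariate, and 3 to 429 with a library left out. The interaction called 0, against 174 with DESeq2. Injury averaged over age called 115, against 402 with DESeq2, 60 with limma-voom, 3 with detected genes as a covariate, and 38 to 284 with a library left out. The causes were not tested.

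Whether replicate numbers pair the libraries was left undecided. Of 15 same-number pairs, 1 had a correlation of deviations over 0.1, against 3 of 30 pairs of different number. That same-number pair was young injured 3 and young sham 3, at 0.245, and the highest value among pairs of different number was 0.263. Deviations from the means of such small groups are tied together within each group, so this check cannot exclude pairing. With the replicate number as a block, 55 genes were called for injury in young valves, 4 for age in injured valves and 60 for averaged injury, with 0 members called and Gpx7 in young valves at an adjusted p of 0.0807.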
